A study of Mus musculus with 9 samples.

Results

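The miRNAs described here are those typical of striated muscle, measured in small RNA libraries of mouse subcutaneous fat. They were chosen by name from a list of 8: miR-499-5p, miR-208b-3p, miR-206-3p, miR-133b-3p, both arms of miR-133a, miR-1b-5p and miR-1a-3p. Of these, 7 were read from the files, among 860 mature miRNAs in all, and miR-208b-3p was not analysed here. The study set mice with a knockout of Ago1 in endothelial cells beside wild-type littermates, with 3 libraries labelled WT, 3 labelled Hete KO and 3 labelled Homo KO, each from 1 mouse. Ago1 encodes an Argonaute protein, which holds mature miRNAs and guides them to target mRNAs. Tissue was taken at 24 weeks of age, and all mice, the WT ones included, had been fed much fat and sucrose for 16 weeks since they were 8 weeks old. The promoter that limited the knockout to endothelium is not given in the sources used here, nor is how the fat was dissected. The level of Ago1 was not analysed here, since the values are those of miRNAs, and the genotype labels stand unchecked.

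A miRNA is cut from a hairpin with a 5p and a 3p arm, of which 1 arm usually dominates, and it finds its targets mainly through its seed, bases 2 to 8. miR-1 and miR-133 are made together from shared transcripts in heart and skeletal muscle, where miR-1 promotes differentiation and miR-133 was described in myoblast proliferation. miR-206 is a skeletal muscle relative of miR-1 and is made beside miR-133b. miR-208b and miR-499 sit in introns of myosin heavy chain genes and are known from heart and slow muscle fibres. miR-1, miR-133 and miR-206 have also been described in brown fat, which shares a developmental origin with skeletal muscle, and much less in white fat. Subcutaneous fat lies close to skin and skeletal muscle.

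RefSeq's table for GRCm38.p6 was searched with 1 chromosome left out, so a member not found may still be in it. The search gave the sequences of 3 of the 7 measured members, 1 from each of the miR-206, miR-133b and miR-499 hairpins. They are shown, with the 5p arm of the Mir1a-1 hairpin, because the results turn on which of these miRNAs move together. They are written 5′ to 3′ with the seed in capitals.
miR-206-3p: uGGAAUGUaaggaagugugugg
miR-133b-3p: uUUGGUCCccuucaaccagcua
miR-499-5p: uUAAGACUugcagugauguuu
miR-1a-1-5p: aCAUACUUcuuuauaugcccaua
The 4 seeds all differ. The seed of miR-206-3p is the one by which it is classed with miR-1. Among the 1679 mature miRNAs searched, which did not include miR-1a-3p, miR-6349 and miR-6382 also carry this seed.

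The hairpins named here, except Mir499, lie in neighbouring pairs in the genome (GRCm38, GENCODE vM21). Mir206 (chromosome 1, 20679010 to 20679082, plus strand) and Mir133b (chromosome 1, 20682769 to 20682887, plus strand) are separated by 3686 bases, and both overlap exonic sequence of Gm28653, a long noncoding RNA gene. Mir499 (chromosome 2, 155622880 to 155622958, plus strand) lies in an intron of the myosin heavy chain gene Myh7b. Mir1a-1 (chromosome 2, 180389048 to 180389124, plus strand) lies 9254 bases before Mir133a-2 (180398379 to 180398482, plus strand), and neither overlaps another gene of the annotation. miR-1a-3p and miR-133a-3p can also come from a second pair of hairpins, so their values are sums over loci.

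The values were treated as quantile-normalized log2(x + 1) values and are called levels below. Every library holds nearly the same ranked set of levels, so a level is in effect a position in a shared ranking. The number of reads is unknown, and the sum of the back-transformed values, from 6681250 to 6681288, hardly differs between libraries because of that normalization. Between 63 and 104 miRNAs sat at the lowest value of a WT library, between 101 and 152 in Hete KO and between 102 and 141 in Homo KO. Whether a value at that floor means absence cannot be said. Compared between miRNAs, levels are not known to be corrected for length, but the sequences shown are all between 21 and 23 bases long.

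miR-1a-3p, the most abundant of the muscle miRNAs in these libraries, ranged from rank 92 to rank 1 of the 860 miRNAs. It stood at 18.47, 18.99 and 12.09 in WT replicates 1, 2 and 3. In Hete KO it stood at 14.84, 19.993 and 14.16, and in Homo KO at 16.17, 11.43 and 11.98. The order of the libraries thus crossed the genotypes. In Hete KO replicate 2 it ranked 1 of 860, above every other miRNA, and in WT replicates 2 and 1 it ranked 3 and 5. In Homo KO replicate 2, at the other end, it ranked 92. As a share of the summed back-transformed values it made up 15.6% of Hete KO replicate 2, 7.81% of WT replicate 2 and 5.44% of WT replicate 1. It made up 1.10% of Homo KO replicate 1 and between 0.0412% and 0.438% of the other 5 libraries. These shares follow from the rank in a common set of levels and are not shares of reads.

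**Figure D1:**
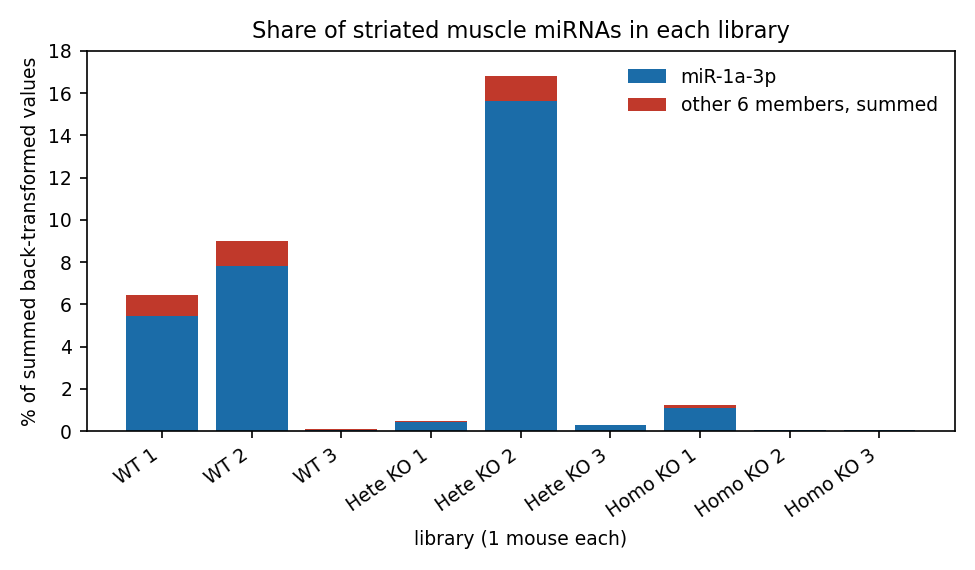
Share of the summed back-transformed values (%, vertical axis) held by miR-1a-3p and by the other 6 measured muscle miRNAs together, in each of the 9 libraries (horizontal axis, 1 mouse each). Hete KO replicate 2 reaches 16.8% and WT replicates 1 and 2 reach 6.43% and 8.98%, while the bars of WT replicate 3 and Homo KO replicates 2 and 3 are under 0.1%.

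miR-133a-3p, the second most abundant member, followed the same libraries. Its levels were 15.82, 16.05 and 8.69 in WT, 11.40, 16.05 and 10.45 in Hete KO and 13.06, 8.06 and 8.17 in Homo KO, in the order of the replicates. WT replicate 2 and Hete KO replicate 2 hold the identical level because both had it at rank 17. The level of miR-133b-3p was 12.87, 13.24 and 5.74 in WT, 8.62, 13.27 and 7.87 in Hete KO and 10.03, 4.98 and 4.86 in Homo KO. In each genotype the library highest for miR-1a-3p was also highest for both of these. miR-133a-3p and miR-133b-3p have nearly identical sequences, so reads of the more abundant one may be counted for the other, and the 2 are not independent measurements.

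The 5p arm of miR-133a, which is the minor product of its hairpins, stood at 9.33, 9.13 and 2.21 in WT, at 4.74, 10.24 and 3.79 in Hete KO and at 6.73, 2.74 and 2.47 in Homo KO. It was above the library's lowest value in all 9 libraries. Its difference from the 3p arm of the same library lay between -6.92 and -5.32 log2 units, with a mean of -6.26 ± 0.53 (SD over 9 libraries).

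miR-206-3p stood at 6.42, 6.64 and 3.72 in WT, at 5.30, 8.08 and 2.56 in Hete KO and at 7.47, 0.22 and 4.59 in Homo KO. It was highest in Hete KO replicate 2, as miR-1a-3p was, but Homo KO replicate 1 came next, ahead of both WT libraries rich in miR-1a-3p. In Homo KO replicate 2 it was at the library's lowest value. The 3 genotypes overlapped widely.

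miR-499-5p, from the myosin gene Myh7b, did not share the pattern. Its levels were 4.36, 4.87 and 5.68 in WT, 5.30, 6.20 and 5.36 in Hete KO and 5.45, 6.26 and 5.42 in Homo KO. The 2 WT libraries with much miR-1a-3p held the lowest levels of miR-499-5p, and Homo KO replicate 2, with the least miR-1a-3p, held the highest. Hete KO replicate 2, with the most miR-1a-3p, came next to it, so neither order held over all libraries. Its full range over the 9 libraries was 1.90 log2 units, against 8.57 for miR-1a-3p.

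miR-1b-5p was near the floor throughout. It stood at 1.06, 2.47 and 2.21 in WT, at 0.84, 0.22 and 0 in Hete KO and at 1.72, 0.22 and 3.01 in Homo KO. Hete KO replicates 2 and 3 and Homo KO replicate 2 were at the library's lowest value. One of these, Hete KO replicate 2, was the library with the most miR-1a-3p. Its mean of 1.31 kept miR-1b-5p out of the tests.

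**Figure D2:**
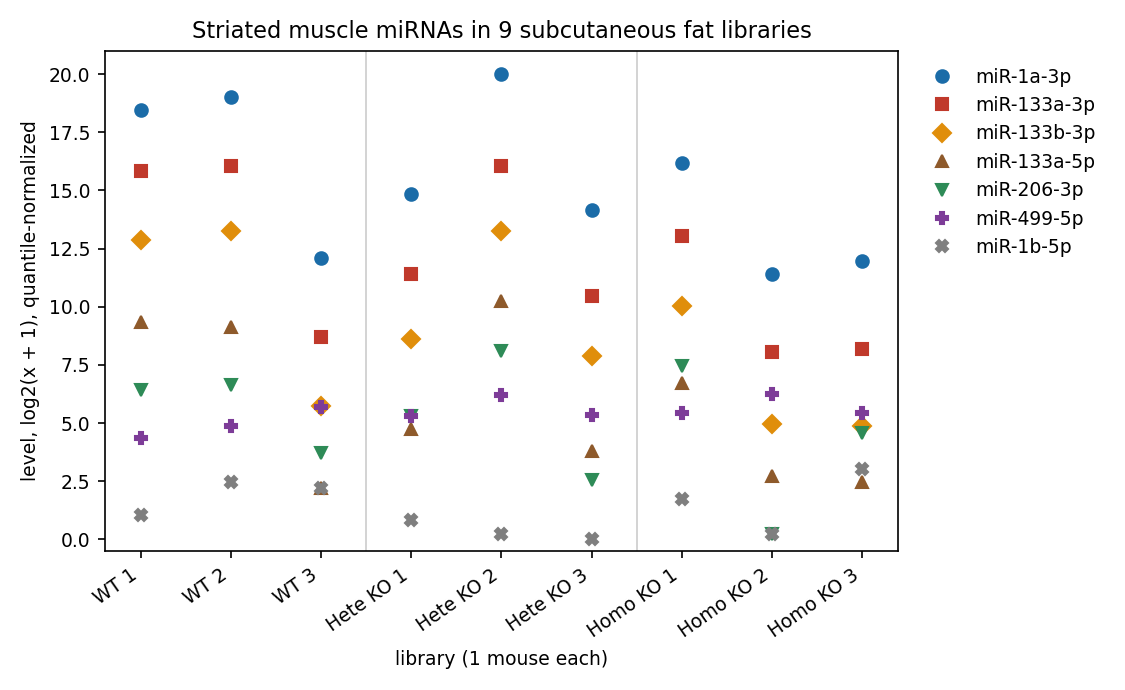
Level of the 7 measured muscle miRNAs (log2(x + 1), quantile-normalized, vertical axis) in each of the 9 libraries (horizontal axis, 1 mouse each, grey lines between genotypes); each symbol is 1 miRNA. miR-1a-3p, both arms of miR-133a and miR-133b-3p are high in WT replicates 1 and 2 and Hete KO replicate 2, while miR-499-5p stays between 4.36 and 6.26.

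By mean level over the 9 libraries the order was miR-1a-3p (15.34), then miR-133a-3p (11.97), then miR-133b-3p (9.05), and below them miR-133a-5p (5.71), miR-499-5p (5.43), miR-206-3p (5.001) and miR-1b-5p (1.31). The first 4 kept this order in every library. In log2 units, the difference of miR-133a-3p from miR-1a-3p lay between -3.94 and -2.65, that of miR-133b-3p from miR-133a-3p between -3.31 and -2.58 and that of miR-133a-5p from miR-133b-3p between -4.10 and -2.24. The next neighbours did not keep a fixed order. miR-499-5p was above miR-133a-5p in 5 libraries and below it in 4, and miR-206-3p was above miR-499-5p in 4 libraries, equal to it in 1 and below it in 4. Those 4 libraries with more miR-206-3p than miR-499-5p were the 4 with the most miR-1a-3p. miR-1b-5p was below miR-206-3p in 8 libraries and equal to it in Homo KO replicate 2, where both were at the floor.

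The difference between miR-133a-3p and miR-1a-3p averaged -3.37 ± 0.42, and that between miR-133b-3p and miR-133a-3p -2.92 ± 0.21 (SD over 9 libraries), while the levels themselves ran over about 8 log2 units (7.99 for miR-133a-3p, 8.41 for miR-133b-3p). miR-206-3p held no such fixed distance, although its hairpin is the neighbour of Mir133b. Its difference from miR-133b-3p was -6.44, -6.60 and -2.01 in WT, -3.32, -5.19 and -5.31 in Hete KO and -2.56, -4.76 and -0.27 in Homo KO. The value of Homo KO replicate 2 is set by the floor. miR-206-3p came nearest to miR-133b-3p in Homo KO replicate 3 and lay farthest below it in WT replicate 2. Since reads of miR-133a-3p may be counted for miR-133b-3p, these differences do not show whether Mir206 and Mir133b are made together. The difference of miR-499-5p from miR-1a-3p ran from -14.12 in WT replicate 2 to -5.17 in Homo KO replicate 2.

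**Figure D3:**
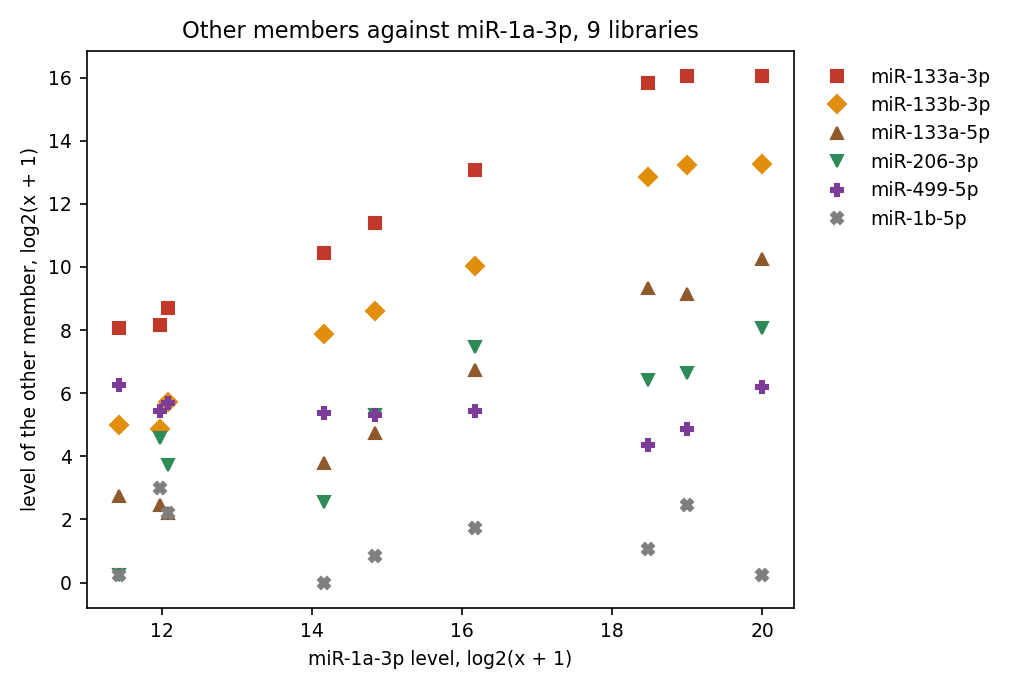
Level of 6 muscle miRNAs (vertical axis, log2(x + 1)) against the level of miR-1a-3p in the same library (horizontal axis, log2(x + 1)); each symbol is 1 library. miR-133b-3p and both arms of miR-133a climb with miR-1a-3p, miR-206-3p climbs with more scatter, and miR-499-5p and miR-1b-5p do not climb.

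Minor arms from the miR-1a hairpins were high in the same libraries as miR-1a-3p. They come from the hairpins that give miR-1a-3p, so they are not independent of it. Their list, too, was chosen with earlier results of these data known. Of 10 further arms and relatives looked for, 2 were measured. miR-1a-1-5p, whose sequence is given above, stood at 7.39, 7.80 and 1.72 in WT, at 2.95, 7.77 and 2.33 in Hete KO and at 4.58, 0.22 and 0 in Homo KO. Homo KO replicates 2 and 3 were at the library's lowest value, so their differences from miR-1a-3p are set by the floor. In the other 7 libraries the difference lay between -12.22 and -10.36. miR-1a-2-5p was above the library's lowest value in 4 libraries only, at 2.88 and 3.91 in WT replicates 1 and 2, 4.85 in Hete KO replicate 2 and 1.72 in Homo KO replicate 1. These are the 4 libraries with the most miR-1a-3p.

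As a measure of spread between mice of the same genotype, the SD within genotypes was computed for each of the 489 miRNAs that passed a filter on low values. Of the 7 measured members, 6 passed this filter. The median SD over all tested miRNAs was 0.299 log2 units. That of miR-133b-3p was 3.42, of miR-133a-3p 3.40, of miR-133a-5p 3.38 and of miR-1a-3p 3.25, which are the 4 highest of the 489. miR-206-3p came 6th with 2.80, behind miR-1a-1-5p with 3.005. miR-499-5p ranked 54 with 0.556. The miRNAs that came next in this ranking, looked up after their values were seen, were miR-122-5p and miR-122-3p, typical of liver (2.61 and 2.19), miR-802-5p (2.28) and miR-205-5p, of stratified epithelium (2.23).

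**Figure D4:**
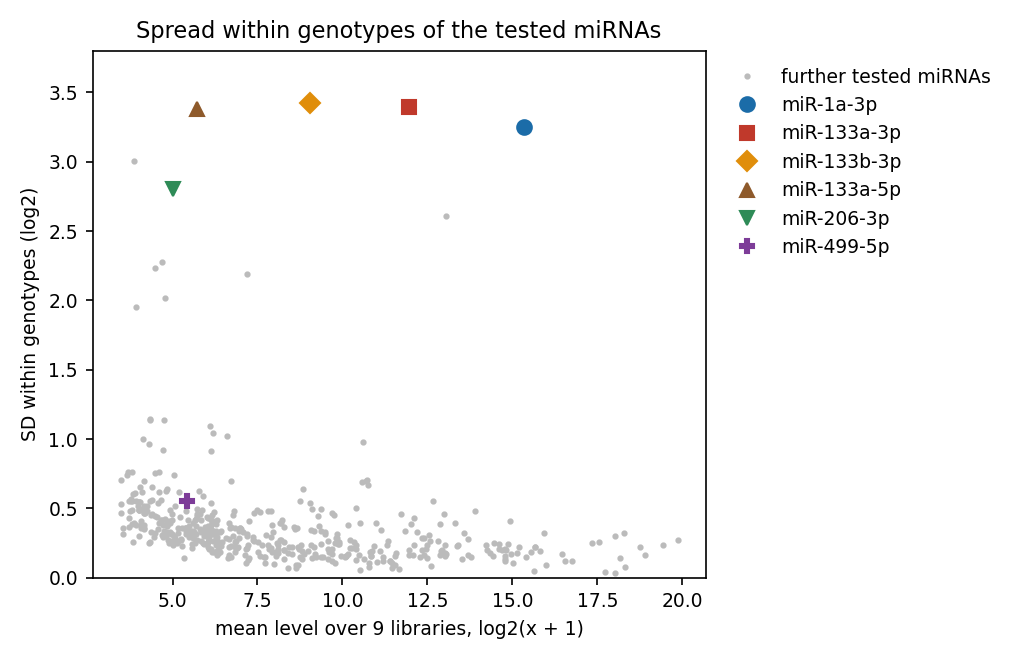
SD within genotypes (log2 units, vertical axis) against the mean level over 9 libraries (log2(x + 1), horizontal axis) of the 489 tested miRNAs; each point is 1 miRNA and the 6 tested muscle miRNAs have their own symbols. Both arms of miR-133a, miR-133b-3p and miR-1a-3p lie at 3.25 to 3.42, above the median of 0.299, and miR-499-5p lies at 0.556.

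Homo KO was compared with WT to ask whether the muscle miRNAs differed between these genotypes. None of the 6 tested members passed the test (limma over all 489 miRNAs, Benjamini-Hochberg adjusted p under 0.05), and none had an unadjusted p under 0.05, where 3.27% of all tested miRNAs passed and 23.9% had such an unadjusted p. Group means of 5 members were lower in Homo KO and 1 was higher, with a median log2 fold change of -3.12, against 0.07 over all tested miRNAs. miR-1a-3p was at 16.52 ± 3.85 in WT and 13.19 ± 2.59 in Homo KO (SD, n = 3 each), a difference of -3.33 ± 2.14 (SE, adjusted p by limma = 0.384). The 95% interval of that difference ran from -8.14 to 1.49. miR-133a-3p differed by -3.76 ± 2.23 (adjusted p = 0.345), miR-133b-3p by -3.99 ± 2.25 (adjusted p = 0.330), miR-133a-5p by -2.91 ± 2.22 (adjusted p = 0.446) and miR-206-3p by -1.50 ± 1.85 (adjusted p = 0.627). Leaving out 1 library moved these values by over 1.5 times. The difference of miR-1a-3p ran from -5.54 without WT replicate 3 to -2.09 without WT replicate 2, and those of miR-133a-3p and miR-133b-3p from -6.17 to -2.49 and from -6.43 to -2.68 between the same libraries. That of miR-133a-5p ran from -5.25 without WT replicate 3 to -1.69 without WT replicate 1. The difference of miR-206-3p rested on Homo KO replicate 2, without which it was 0.43 ± 1.59, and it was -3.19 without Homo KO replicate 1. miR-499-5p was the member with the higher mean in Homo KO, by 0.74 ± 0.40 (adjusted p = 0.310). For none of the 6 did the 3 Homo KO mice lie apart from the 3 WT mice, where 32.7% of all tested miRNAs had groups without overlap. The 95% intervals of the 5 variable members reached from as low as -9.06 to as high as 2.66, so these tests do not show that the genotypes are alike.

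Hete KO against WT likewise called none of the 6 members, with none at an unadjusted p under 0.05, where 0.409% of all tested miRNAs passed and 15.7% had such an unadjusted p. The median log2 fold change of the members was -0.46, against -0.02 over all. miR-1a-3p was at 16.33 ± 3.19 in Hete KO (SD, n = 3), which differed from WT by -0.19 ± 2.14 (SE, adjusted p by limma = 0.982) with a 95% interval from -5.001 to 4.62. This mean joins replicate 2, the highest of all libraries, with 2 replicates at 14.84 and 14.16, so no Hete KO mouse was near it. The sign of this difference depended on single libraries. It was -2.02 without Hete KO replicate 2 and -2.40 without WT replicate 3, but 0.79 without WT replicate 1, 1.05 without WT replicate 2, 0.56 without Hete KO replicate 1 and 0.90 without Hete KO replicate 3. The differences of miR-133a-3p, miR-133b-3p, miR-133a-5p and miR-206-3p turned positive too without WT replicate 2, at 0.38, 0.62, 0.49 and 0.24, and without Hete KO replicate 3, at 0.20, 0.33, 0.60 and 1.09. The other variable members differed by -0.89 ± 2.23 (miR-133a-3p), -0.69 ± 2.25 (miR-133b-3p), -0.63 ± 2.22 (miR-133a-5p) and -0.28 ± 1.85 (miR-206-3p). miR-499-5p differed by 0.65 ± 0.40 (adjusted p = 0.456). No member had groups without overlap, against 17.2% of all tested miRNAs.

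Homo KO against Hete KO gave no call among the 6 members or among all 489 miRNAs (0%), with 8.38% of all tested miRNAs and none of the members at an unadjusted p under 0.05. The median log2 fold change was -2.57 for the members and 0.04 over all. miR-1a-3p differed by -3.14 ± 2.14 (adjusted p by limma = 0.779, 95% interval -7.95 to 1.68), miR-133a-3p by -2.87 ± 2.23, miR-133b-3p by -3.30 ± 2.25, miR-133a-5p by -2.28 ± 2.22 and miR-206-3p by -1.22 ± 1.85 (SE). Without Hete KO replicate 2 the differences were -1.305 for miR-1a-3p, -1.16 for miR-133a-3p, -1.62 for miR-133b-3p, -0.29 for miR-133a-5p and 0.16 for miR-206-3p. Without Homo KO replicate 1 they were at their most negative, at -4.63, -4.52, -5.003, -3.655 and -2.91 in the same order. Without Homo KO replicate 2 that of miR-206-3p was 0.71. miR-499-5p was at 5.62 ± 0.51 in Hete KO and 5.71 ± 0.47 in Homo KO (SD, n = 3 each), and the 95% interval of its difference ran from -0.81 to 0.99. Without overlap between groups were 12.3% of all tested miRNAs and none of the members. The 3 comparisons share libraries and are not independent of each other.

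**Figure D5:**
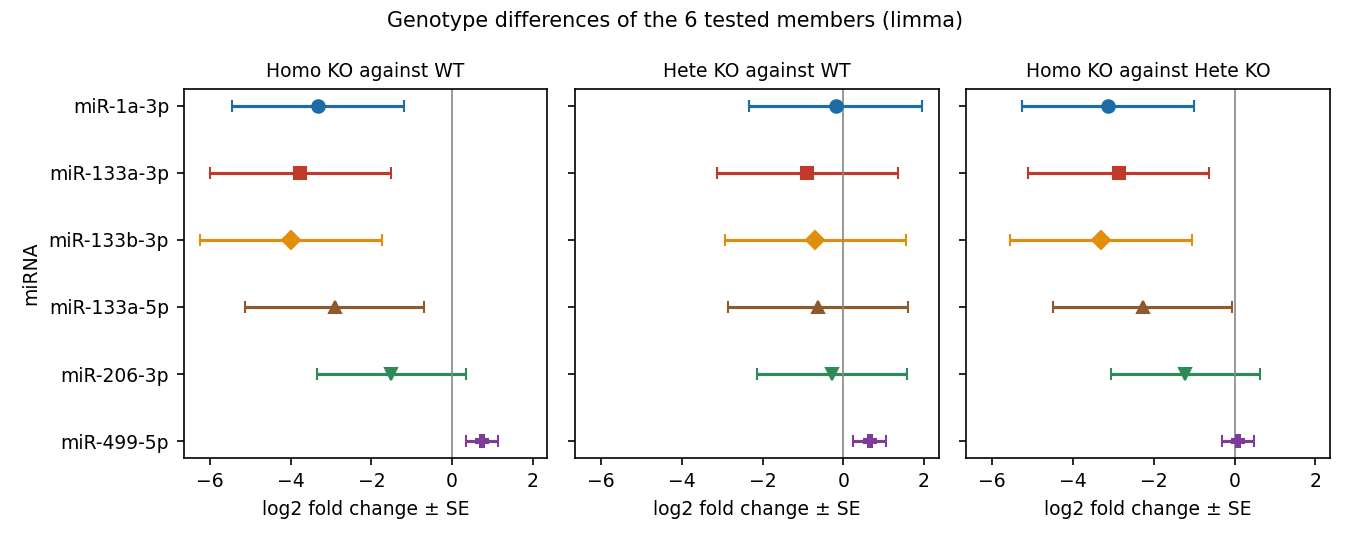
Log2 fold change (horizontal axis, points) with its SE (bars) of the 6 tested muscle miRNAs (vertical axis) in the 3 comparisons of genotypes, from limma over 489 miRNAs. In Homo KO against WT 5 of the 6 points lie below 0, with SEs of 1.85 to 2.25 for these 5 and 0.40 for miR-499-5p, and no point passed the test.

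In bulk tissue, fewer muscle cells and less of these miRNAs per cell cannot be told apart. Markers of other cell types were read for the same libraries. Among 11 miRNAs enriched in striated muscle but also made elsewhere, all 11 were tested and none was called in any of the comparisons. They include miR-378a, from an intron of Ppargc1b and known from brown fat too, and miR-486, known from red blood cells too. As a group they held 0.645% and 0.725% of the summed values in WT replicates 1 and 2 and 1.18% in Hete KO replicate 2, against 0.445% to 0.558% in the other 6 libraries. So the 3 libraries with the most miR-1a-3p were also the 3 highest here. The same 3 had the highest mean level of this list, at 10.48, 10.46 and 11.26, against 9.08 to 9.59 in the other 6. Homo KO replicate 1, the fourth in miR-1a-3p, was the lowest by the summed share (0.445%) and the fourth highest by the mean level (9.59). Hete KO replicate 1, with miR-1a-3p at 14.84, had the lowest mean level (9.08) and a share of 0.452%. Homo KO replicates 2 and 3, with the least miR-1a-3p, held larger shares (0.544% and 0.558%), so below the top 3 the list did not follow miR-1a-3p. The 2 most abundant, miR-378a-3p and miR-378c, ranged from 13.43 to 14.94 and from 12.92 to 14.16 over the libraries. In Homo KO against WT all 11 had negative differences, with a median of -0.34, where 220 of all 489 tested miRNAs had negative ones. The 11 include several forms of miR-378 and several arms of miR-486, so they are not independent of each other. miR-434-3p, named after its value was seen, came nearest to a call in that comparison (-0.89 ± 0.22 SE, limma adjusted p = 0.0526).

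miRNAs of smooth muscle and mural cells, a kind of muscle outside the striated group, did not vary in this way in their mean level. All 5 of that list were in the files and none was at a library's lowest value. Their mean level lay between 12.03 and 12.25 in WT, 12.13 and 12.46 in Hete KO and 12.28 and 12.36 in Homo KO. Their share of the summed values was less even. It was 10.9% in WT replicate 3 and 10.8% in Hete KO replicate 2, against 15.9% to 16.1% in the other 7 libraries. miR-143-3p was at 19.42 in Hete KO replicate 2, the library in which miR-1a-3p took the top rank, and at 19.42 in WT replicate 3, and at the shared maximum of 19.993 in the other 7. miR-145a-5p, made from the same transcript, ranged from 13.84 to 14.48. Of 10 miRNAs abundant in fat cells, 10 were measured, and they held 15.0% to 16.2% of the summed values in WT, 16.9% to 18.3% in Hete KO and 16.8% to 17.9% in Homo KO. The 2 with the highest means, miR-30a-5p and miR-26a-5p, ranged from 18.09 to 18.47 and from 17.83 to 18.34. The members of this list are made in many cell types, so it does not define the tissue. Of 7 miRNAs known from brown fat, all 7 were measured and none was at a library's lowest value. They held 0.142% and 0.131% of the summed values in WT replicates 1 and 2 and 0.124% in Hete KO replicate 2, against 0.126% to 0.178% in the other 6 libraries, and their mean level was 6.88, 7.01 and 7.46 in these 3, against 6.91 to 7.29 in the others. Hete KO replicate 2 thus had the lowest summed share of this list and its highest mean level. Their 2 most abundant, miR-365-3p and miR-455-3p, ranged from 12.66 to 13.35 and from 9.48 to 9.90. For brown fat, endothelium, epithelium and skin, leukocytes, erythroid cells, neural tissue and liver, the median log2 fold changes in Homo KO against WT were 0.31, -0.37, 0.64, 0.24, -0.23, 0.57 and 0.40, in that order. In that comparison 1 of 7 tested epithelial miRNAs (miR-203-3p) and 1 of 6 tested leukocyte miRNAs (miR-142a-5p) were called, both higher. Both were named after their values were seen, and 3.27% of all tested miRNAs were called there. In Hete KO against WT the medians were 0.21, -0.53, 1.47, -0.003, -0.70, 0.34 and 1.10, with no call. In Homo KO against Hete KO they were 0.06, 0.16, -0.83, 0.48, 0.56, 0.27 and -0.70, with no call. Only 2 miRNAs were tested for endothelium and 2 for liver, in each case both arms of 1 hairpin. Single libraries stood apart in the epithelial and liver lists. The mean level of the epithelial list was 8.97 in Hete KO replicate 1, against 6.29 and 5.91 in replicates 2 and 3. That of the liver list was 5.18 in WT replicate 1, against 11.575 and 12.11 in replicates 2 and 3. How far the medians rest on these libraries was not tested. The part of all these other miRNAs in the differences of the muscle miRNAs was not tested.

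Likeness to miR-1a-3p was measured by Pearson's r over the 9 libraries, as a description. The points share the normalization and fall into libraries with much and with little miR-1a-3p, so that r mainly sets these apart. Among the members r was 0.993 for miR-133b-3p and for miR-133a-3p, 0.988 for miR-133a-5p, 0.821 for miR-206-3p and -0.366 for miR-499-5p. Of the 483 further tested miRNAs, 1 had an r over 0.9, miR-1a-1-5p with 0.984. It was followed by miR-132-5p (0.882), miR-486a-3p (0.855), miR-33-3p (0.835) and miR-486b-3p (0.828). miR-486a-3p ranged from 2.56 in Hete KO replicate 1 to 8.15 in Hete KO replicate 2, and miR-486b-3p, from a hairpin on the opposite strand of the same place whose reads can be shared, from 1.37 to 7.14. miR-132-5p moved far less, between 5.29 and 6.34.

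At the opposite end were miR-135a-5p (r = -0.906), miR-511-5p (-0.903), miR-135b-5p (-0.878), miR-10b-5p (-0.875) and miR-16-5p (-0.847). miR-135a-5p and miR-135b-5p held the same level in 7 of the libraries and are near copies in sequence. miR-10b-5p lay at 16.52 in Hete KO replicate 2, at 16.64 in WT replicates 1 and 2 and at 16.84 in the other 6 libraries. miR-1a-3p stood above miR-10b-5p in the ranking of those 3 libraries and below it in the other 6. Negative coefficients were in the majority, with 312 of the 483.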

How the data were processed

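Small RNA libraries of subcutaneous fat from 9 mice, 3 per genotype, were used. RNA was taken up in Trizol and sequenced from TruSeq small RNA libraries (Illumina), per the labels' protocols. The build was mm10, per the submitters' processing notes. The method of alignment, counting, annotation and normalization is not given in the sources used here. Deposited values are named FPKM but are on a log2 scale: they end at 19.993 in all 9 libraries, and the top 100 ranked values are identical in all 9, as quantile normalization gives. No counts were recovered, the depth is unknown, and intervals of counting error are left out.

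Tests covered miRNAs with a mean of 3.46, log2(10 + 1), or more that exceeded the lowest value of the library in 3 or more libraries, which were 489 of 860, with 371 left out. Genotypes were set against each other in limma 3.58.1 (R 4.3.3, eBayes with a variance trend, all 9 libraries, no covariate, no pseudocount added), with Benjamini-Hochberg adjustment over the 489. The log2(x + 1) scale understates fold changes of rare miRNAs. Per the series' design text each library is from 1 mouse. The script was tested on simulated data. Members and lists were chosen with earlier results of these data known. Named were every member, the measured relatives of the muscle miRNAs, the 5 miRNAs most and the 5 least like miR-1a-3p by Pearson's r, and the 2 most abundant of a marker list where it is described. Marker lists for brown fat, endothelium, epithelium, leukocytes, erythroid cells, neural tissue and liver were read too. Alternatives were other filters, a pseudocount of 10, median scaling, quantile normalization without the members, no variance trend, sample weights, a replicate block, a fit of only the 2 groups compared, and leaving out 1 library at a time.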

Additional observations from a re-analysis of the deposited data

How the results depend on the processing

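No member was called in any comparison under any alternative, and the lowest adjusted p (limma) among 297 recomputed member values was 0.0922. Of these, 274 kept their sign and 23 changed it, all when 1 library was left out. Over the libraries left out, Hete KO against WT ran from -2.40 to 1.05 for miR-1a-3p, -3.30 to 0.38 for miR-133a-3p, -2.97 to 0.60 for miR-133a-5p, -3.13 to 0.62 for miR-133b-3p and -1.66 to 1.09 for miR-206-3p. The sign turned for all 5 without WT replicate 1, WT replicate 2 or Hete KO replicate 3, and for miR-1a-3p and miR-133a-5p without Hete KO replicate 1. miR-206-3p ran from -3.19 to 0.43 in Homo KO against WT (turned without Homo KO replicate 2) and from -2.91 to 0.71 in Homo KO against Hete KO (0.71 without Homo KO replicate 2 and 0.16 without Hete KO replicate 2). miR-499-5p ran from -0.18 to 0.38 in the latter (-0.18 without Homo KO replicate 2, -0.07 without Hete KO replicate 1 and -0.04 without Hete KO replicate 3). The stricter filter on low values removed miR-206-3p, miR-133a-5p and miR-499-5p from the test.

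The number of calls over all miRNAs was less stable than that over the members. In Homo KO against WT it was 16, and 9 without a filter, 25 with the stricter filter, 74 with sample weights and 2 to 25 with 1 library left out. In Hete KO against WT it was 2, and 10 with the stricter filter, 34 with sample weights, 1 without the variance trend, 1 with only the 2 groups and 1 to 24 with 1 library left out. With the 6 tested members left out and the rest quantile-normalized it was 33 and 6. With the replicate block it was 25 and 15, and 0 of the members were called. Same-numbered libraries deviated together in 5 of 9 pairs (r over 0.1, range -0.282 to 0.548). Differently numbered pairs ranged from -0.702 to 0.539. These values do not settle whether the numbers pair the mice, and the main fit used no block. Homo KO against Hete KO gave 0 under every alternative. The causes were not tested. Unknown depth limits what can be said of miR-1b-5p and of other values at the floor.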
